A study of Mus musculus with 26 samples.

Results

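The 10 genes described here were grouped as STAT5 target and feedback genes. The group holds the signalling brakes Cish, Socs1, Socs2 and Socs3, the kinase genes Pim1 and Pim2 and the cytokine gene Osm. It also holds the secreted-protein gene Lrg1, the repressor gene Bcl6 and the RAS pathway inhibitor gene Spred1. These genes were picked by symbol, with earlier results of these data known, and are 10 of the 23416 genes in the table. All 10 had at least 1 RPKM (reads per kilobase of gene model, corrected for sequencing depth) in at least 5 libraries and were tested among 12116 such genes. The question put to them was whether active JAK2 raises its own feedback genes in stem cells, and what loss of Ezh2 does to them.

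Haematopoietic stem cells (HSCs), which renew themselves and supply every blood lineage, had been sorted from mouse bone marrow and profiled by Smart-Seq2, a full-length RNA-seq protocol for few cells. The 26 libraries came from control mice (labelled CTR and WT, n = 5), mice with JAK2V617F, the activating kinase mutation of human myeloproliferative neoplasms (n = 7), mice lacking Ezh2, which encodes the enzyme that places the repressive Polycomb mark on histone H3 (n = 7), and double mutants with both changes (n = 7). The genotype label of the double mutant spells the mutation JAK2V17F, which was read as JAK2V617F. The sources used here do not name the alleles, the promoter or Cre behind them, or the age, sex, strain and number of cells per library. The labels do not state whether each library is a separate mouse, so the p-values reflect library-to-library spread that may be technical.

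Library titles carry a number either before or after the group code. The 15 number-first libraries comprised 4 of 5 control, 2 of 7 JAK2V617F, 2 of 7 Ezh2 loss and 7 of 7 double-mutant libraries, and the other 11 were number-last. With all genotypes in 1 limma fit, 11% of the 12116 genes (1331, of which 931 were higher in number-first libraries) passed at a Benjamini-Hochberg adjusted p under 0.05 for this title style, so every fit below holds a style term unless it says otherwise. The labels do not explain the title style. The term is a single shift shared by all genotypes, and for the double mutant, all number-first, it comes from the other genotypes. Bcl6 averaged 3.23 RPKM in number-first controls against 6.62 in the 1 number-last control, and 0.536 against 12.3 in JAK2V617F. Whether the shift is equal between genotypes was not tested, so adjusted values may still hold style differences. Depth, recovered from the steps between low values, was 7.82 to 29.2 M reads, and the double mutant was deepest on average (21.1 M), followed by control (17.5 M), Ezh2 loss (14.0 M) and JAK2V617F (13.5 M). Of 15 HSC marker genes, 12 were detected in every library, with a summed level of 1074 to 2101 RPKM. Neutrophil transcripts were also present, and their summed level lay above the highest control (388 RPKM) in 1 of 7 JAK2V617F, 7 of 7 Ezh2 loss and 4 of 7 double-mutant libraries.

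In blood-forming cells, cytokine receptors such as those for erythropoietin and thrombopoietin activate the kinase JAK2, which phosphorylates STAT5, and STAT5 dimers enter the nucleus and bind DNA. Among the genes they induce are SOCS-family proteins, which bind the receptors or the kinases and damp the same signal, so that these transcripts are widely used as a readout of pathway activity. JAK2V617F signals without cytokine, while EZH2 deposits a repressive histone mark that silences lineage genes in stem cells.

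STAT dimers recognise an inverted repeat, TTCNNNGAA, which reads the same on both strands. It was searched in RefSeq promoter windows of 300 bases (250 before and 50 after a start site; GRCm38.p6). The motif was found in 8.3% of all 32851 windows, and in 4 of the 10 windows of the 8 genes that had one. The stretches below hold every match among these windows, with the motif in capitals, read 5′ to 3′ along the gene's own strand; they are shown because they are the letters the factor upstream of these genes could read. A match describes the sequence and does not show binding. Cish is on the + strand at chr9:107296654-107296683, where both matches lie in a GENCODE exon just at and after the RefSeq start. Socs3 is on the - strand at chr11:117969462-117969570, in a GENCODE intron. Its window lies inside the GENCODE gene (117966079 to 117970047) and does not reach the start of that gene. Bcl6 has 2 stretches on the - strand, upstream of the gene at chr16:23988912-23989020 and in an intron before another RefSeq start at chr16:23981313-23981501.
Cish: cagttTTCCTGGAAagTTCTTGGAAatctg
Socs3: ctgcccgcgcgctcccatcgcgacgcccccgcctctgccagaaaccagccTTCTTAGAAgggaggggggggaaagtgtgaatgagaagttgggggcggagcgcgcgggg
Bcl6, upstream of the gene: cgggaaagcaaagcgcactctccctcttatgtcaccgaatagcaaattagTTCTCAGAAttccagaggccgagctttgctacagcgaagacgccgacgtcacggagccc
Bcl6, before the internal start: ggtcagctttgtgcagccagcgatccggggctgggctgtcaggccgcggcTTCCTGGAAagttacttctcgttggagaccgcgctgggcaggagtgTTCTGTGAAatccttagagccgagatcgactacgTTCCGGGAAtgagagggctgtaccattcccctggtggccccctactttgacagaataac

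At least 2 matches, as in the Cish window and the internal Bcl6 window (3 matches), were found in 0.457% of all windows. The windows of Socs1, Pim1, Pim2, Lrg1 and Spred1 held no match within their 300 bases. Socs2 and Osm are named without a window.

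Active JAK2 was not accompanied by a called rise of any of the 10 genes. In limma, 0 of 10 passed for JAK2V617F against control (0% of all tested genes passed), 0 of 10 for the double mutant against Ezh2 loss (0%), and 0 of 10 for the average of these 2 differences (0%). At an unadjusted p under 0.05 the counts were 0 of 10, 1 of 10 and 0 of 10, where 4.14%, 7.84% and 5.63% of all genes did so. On average over both Ezh2 backgrounds, 4 of the 10 genes were on the higher side with JAK2V617F. The median log2 difference of the 10 was -0.14, against -0.01 over all genes. The 10 include Bcl6, which STAT5 represses in several cell types, and Lrg1, known as a STAT3-responsive gene. For 7 of 10 genes the upper end of the 95% interval of that average lay under a 2-fold rise. JAK2V617F, Ezh2 loss and double mutant were each set against the same 5 controls, so those 3 comparisons are not independent.

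In the Ezh2 single mutant Socs2, Cish and Pim2 were lower and Lrg1 was higher than in control, and none of these differences passed over all genes. For Ezh2 loss against control 0 of 10 passed (0% of all genes), with 4 of 10 at an unadjusted p under 0.05 (6.07% of all genes), namely these 4. Among them Lrg1 met the filter of 5 libraries only through the Ezh2 loss group. Its place in this count, and in that of the average Ezh2 loss effect below, is a description only. For the double mutant against JAK2V617F 0 of 10 passed (0.033% of all genes), with 1 of 10 unadjusted (Socs2; 8.06% of all genes). For the average Ezh2 loss effect 0 of 10 passed (0.0578% of all genes), with 3 of 10 unadjusted (Socs2 lower, Bcl6 and Lrg1 higher; 8.66% of all genes). The double mutant against control gave 0 of 10 (0.00825% of all genes; 0 of 10 unadjusted, 6.17% of all genes). The interaction, which asks whether the JAK2V617F difference depends on Ezh2, gave 0 of 10 (0% of all genes; 0 of 10 unadjusted, 6.09% of all genes).

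**Figure D1:**
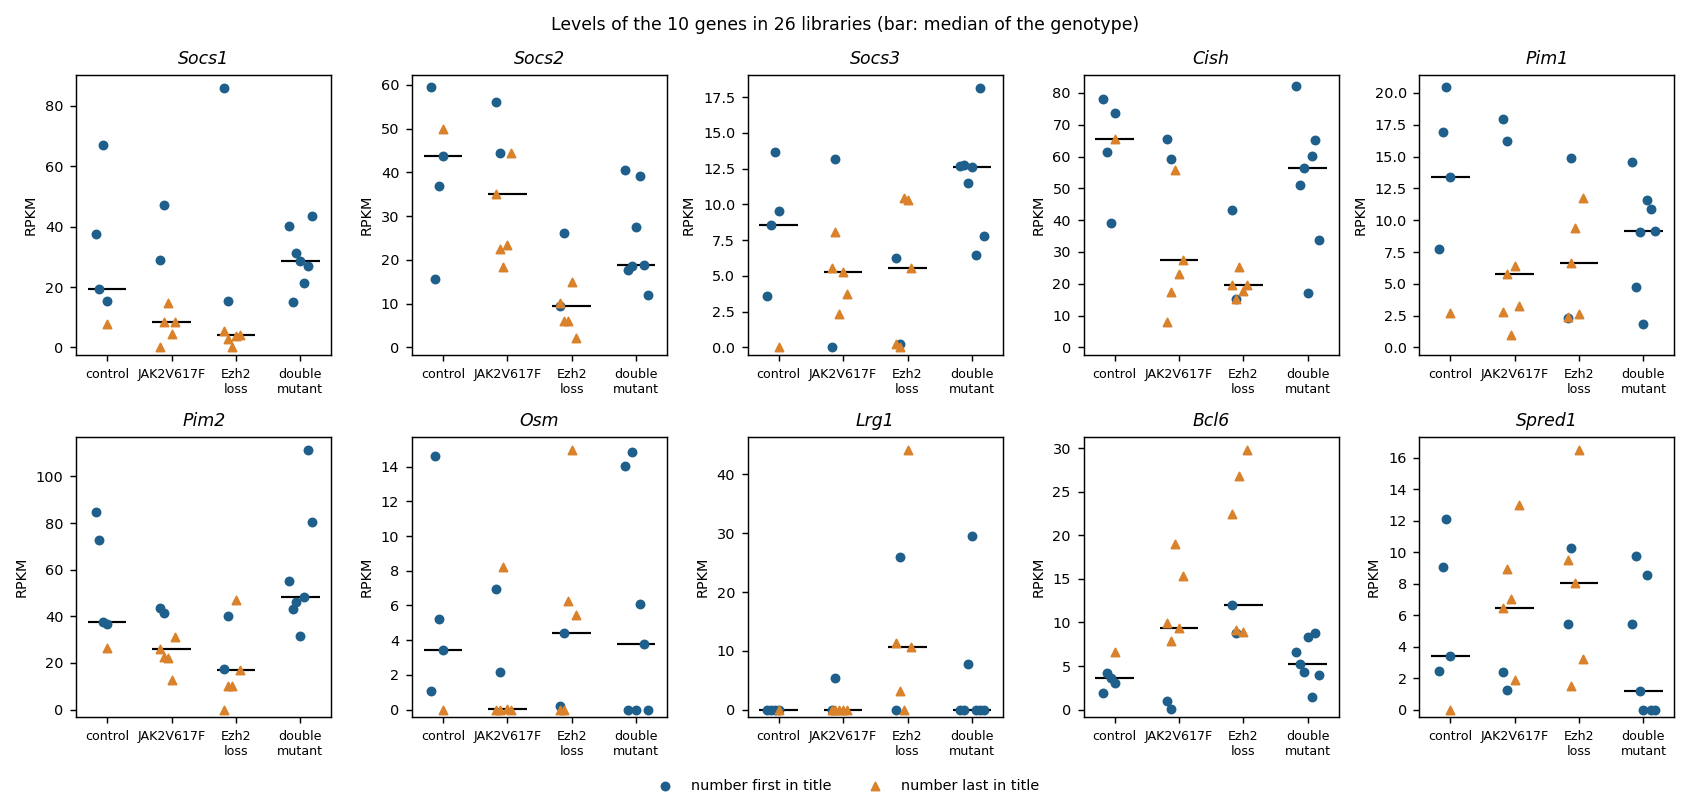
RPKM of each of the 10 genes (vertical axis, linear) in the 26 libraries by genotype, with circles for number-first and triangles for number-last titles and a bar at the median of the genotype. Ezh2 loss libraries sit low for Socs2 (median 9.44 against 43.7 RPKM in control) and high for Bcl6 (median 12.1 against 3.67), and Socs1 is low in nearly all triangles.

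Cish encodes CIS, an SH2-domain protein that occupies STAT5 docking sites on activated receptors and is among the most direct STAT5 targets (chromosome 9, 107296026 to 107302784, + strand; 2 genes on the opposite strand, Gm17041 and Gm17040, share 7.46% and 4.07% of its exon bases, and reads from them cannot be told apart if strand was not used in counting). In control libraries Cish was at 78.2, 61.4, 39.1, 73.7 and 65.6 RPKM. Cish was at 7.93, 27.3 and 65.4 RPKM (lowest, median and highest) in JAK2V617F and at 17.1, 56.4 and 82.1 RPKM in the double mutant. In Ezh2 loss it was at 15.1, 19.5 and 43.3 RPKM, and 6 of 7 libraries lay below the lowest control. Control and Ezh2 loss thus overlapped in 1 library, while double-mutant libraries spanned the control range and went below it. The highest JAK2V617F library lay within the control range, but 4 of 7, all number-last, lay below the lowest control. Among double-mutant libraries 2 of 7 lay below it. Such counts were not made over all genes.

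Between JAK2V617F and control the log2 difference of Cish was -0.67 (SE 0.43, 95% interval -1.56 to 0.21, limma adjusted p = 0.999). In the absence of Ezh2, the double mutant differed from Ezh2 loss by 0.64 (95% interval -0.26 to 1.54). These opposite signs average to -0.02 (SE 0.27), or 0.989-fold with a 95% interval of 0.675 to 1.45, so that an average 2-fold rise of this STAT5 target lies outside the interval. For Ezh2 loss against control the difference was -1.16 (SE 0.43, 95% interval -2.05 to -0.27, limma adjusted p = 0.718), and between double mutant and JAK2V617F it was 0.16 (95% interval -0.74 to 1.06).

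The interaction of Cish was the only genotype comparison of the 10 genes whose call turned on the style term. Without that term it passed at 2.19 (SE 0.57, limma adjusted p = 0.0422), as did 215 of all tested genes (1.77%). With the term it was 1.32 (SE 0.69, 95% interval -0.09 to 2.72, limma adjusted p = 0.83). Within the number-first libraries Cish averaged 63.1 ± 17.5 RPKM in control (SD, n = 4), 62.3 ± 4.47 in JAK2V617F (n = 2), 29.2 ± 19.9 in Ezh2 loss (n = 2) and 52.2 ± 21.3 in the double mutant (n = 7). Within the number-last libraries it was at 65.6 RPKM in the 1 control, 26.3 ± 17.99 in JAK2V617F (n = 5) and 19.5 ± 3.76 in Ezh2 loss (n = 5). JAK2V617F was thus within 1 SD of control among number-first libraries and lay lower among number-last libraries, where the control is a single library.

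Socs2 encodes the SOCS protein best known for restraining growth hormone signalling, and its transcript is STAT5-dependent in HSCs (chromosome 10, 95385362 to 95417180, - strand). The control libraries held Socs2 at 59.5, 15.7, 36.8, 43.7 and 49.99 RPKM. Lowest, median and highest values were 18.3, 35.0 and 56.0 RPKM in JAK2V617F and 11.95, 18.8 and 40.5 RPKM in the double mutant. In Ezh2 loss they were 2.08, 9.44 and 26.2 RPKM. Of the Ezh2 loss libraries 6 of 7 were below the lowest control, control replicate 2, which itself lay far under the other 4 controls, and 1 of 7 double-mutant libraries was below it. Such counts were not made over all genes.

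Socs2 had the smallest p of the 10 genes for Ezh2 loss against control, for the double mutant against JAK2V617F and for their average. Its difference was -1.66 for Ezh2 loss against control (SE 0.46, 95% interval -2.60 to -0.72, limma adjusted p = 0.615). Between double mutant and JAK2V617F the Socs2 difference was -0.96 (SE 0.46, 95% interval -1.91 to -0.01, limma adjusted p = 0.615). The average Ezh2 loss effect on Socs2 was -1.31 (SE 0.28, limma adjusted p = 0.0743), or 0.403-fold with a 95% interval of 0.269 to 0.604. It passed without control replicate 2 (-1.49, limma adjusted p = 0.026), without Ezh2 loss replicate 6 (-1.40, adjusted p = 0.0356) and without Ezh2 loss replicate 4 (-1.38, adjusted p = 0.0479), and with no other single library left out. Those were the lowest control (15.7 RPKM) and the highest Ezh2 loss libraries (14.9 and 26.2 RPKM), which ran most against the difference. In number-first libraries alone the average was -1.09 (SE 0.38, limma adjusted p = 0.588), so that the direction was the same where libraries were fewer. With the neutrophil score of each library as a covariate the average was -1.40 (SE 0.36, limma adjusted p = 0.19). That score was 0.753 to 2.08 in control and 2.22 to 8.01 in Ezh2 loss libraries, without overlap. For that part of the average the covariate cannot separate score from genotype. Erythroid marker transcripts, summed over 10 genes, also lay above the highest control (37.9 RPKM) in 6 of 7 Ezh2 loss libraries, at 37.1 to 6199.8 RPKM over the group, against 2.46 to 41.9 in JAK2V617F and 7.92 to 49.5 RPKM in the double mutant, and their part in the Socs2 difference was not tested.

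With JAK2V617F, Socs2 differed by 0.13 from control (95% interval -0.81 to 1.07) and by 0.84 between double mutant and Ezh2 loss (95% interval -0.11 to 1.79). The average was 0.48 (SE 0.28, limma adjusted p = 0.909), or 1.40-fold with a 95% interval of 0.933 to 2.09, an interval that holds both no difference and a 2-fold rise. The interaction of Socs2 was 0.71 (95% interval -0.78 to 2.19).

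The tested genes most like Socs2 across the 26 libraries, after the mean of each title style was removed, were Snord16a (Pearson r = 0.772), C530008M17Rik (0.734), Ccnd1 (0.732), Nip7 (0.722) and Igsf8 (0.711), out of 12115 searched. Ccnd1 encodes cyclin D1, a STAT5 target that drives entry into the cell cycle. Those most like Cish were Gnl2 (0.719), 2610002M06Rik (0.701), D14Abb1e (0.682), Lpin2 (0.666) and Fam188a (0.650). These correlations are a description over libraries that share genotype and depth, and carry no test.

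Socs1 encodes the SOCS protein that binds and inhibits the JAK kinases themselves (chromosome 16, 10782240 to 10785536, - strand). Control libraries had Socs1 at 37.6, 19.3, 67.1, 15.5 and 7.66 RPKM. The medians were 28.5 RPKM in the double mutant, 19.3 in control, 8.59 in JAK2V617F and 4.14 in Ezh2 loss, an order that followed the share of number-first libraries. Socs1 lay between 15.2 and 86.1 RPKM in the 15 number-first libraries and between 0 and 14.6 RPKM in the 11 number-last libraries, with no overlap. The share of all genes without overlap between styles was not counted, and 11% of all tested genes passed for title style. Title style was called for Socs1 at 2.76 (SE 0.51, limma adjusted p = 0.000333), or 6.80-fold.

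With style in the fit, Socs1 differed by 0.19 between JAK2V617F and control (95% interval -1.10 to 1.49) and by 0.14 in the average JAK2V617F effect (0.629- to 1.92-fold). The average Ezh2 loss effect was -0.40 (95% interval -1.20 to 0.41). No genotype difference of Socs1 was detectable beyond the spread.

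Socs3 encodes a brake that acts mainly on receptors of the interleukin 6 and granulocyte colony-stimulating factor type (chromosome 11, 117966079 to 117970047, - strand). Control libraries had Socs3 at 3.60, 8.56, 13.7, 9.53 and 0 RPKM. The double mutant had the highest levels, at 6.46, 12.6 and 18.2 RPKM (lowest, median, highest), against 0, 5.26 and 13.1 RPKM in JAK2V617F and 0, 5.56 and 10.5 RPKM in Ezh2 loss. The ranges overlapped between all 4 genotypes. The average JAK2V617F effect on Socs3 was 0.73 (SE 0.49, limma adjusted p = 0.919), or 1.65-fold with a 95% interval of 0.829 to 3.30, the highest of the 10 genes. The double mutant differed from Ezh2 loss by 1.5 (95% interval -0.12 to 3.13), whereas JAK2V617F differed from control by -0.05 (95% interval -1.66 to 1.55). In the 11 number-last libraries Socs3 ran with the immediate early score, the mean of 17 handling-sensitive genes such as Fos and Jun (r = 0.64 and rho = 0.78, permutation test, adjusted p = 0.304 and 0.0664), and at r = 0.39 without 2 libraries, whereas in the 15 number-first libraries r was -0.04.

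**Figure D2:**
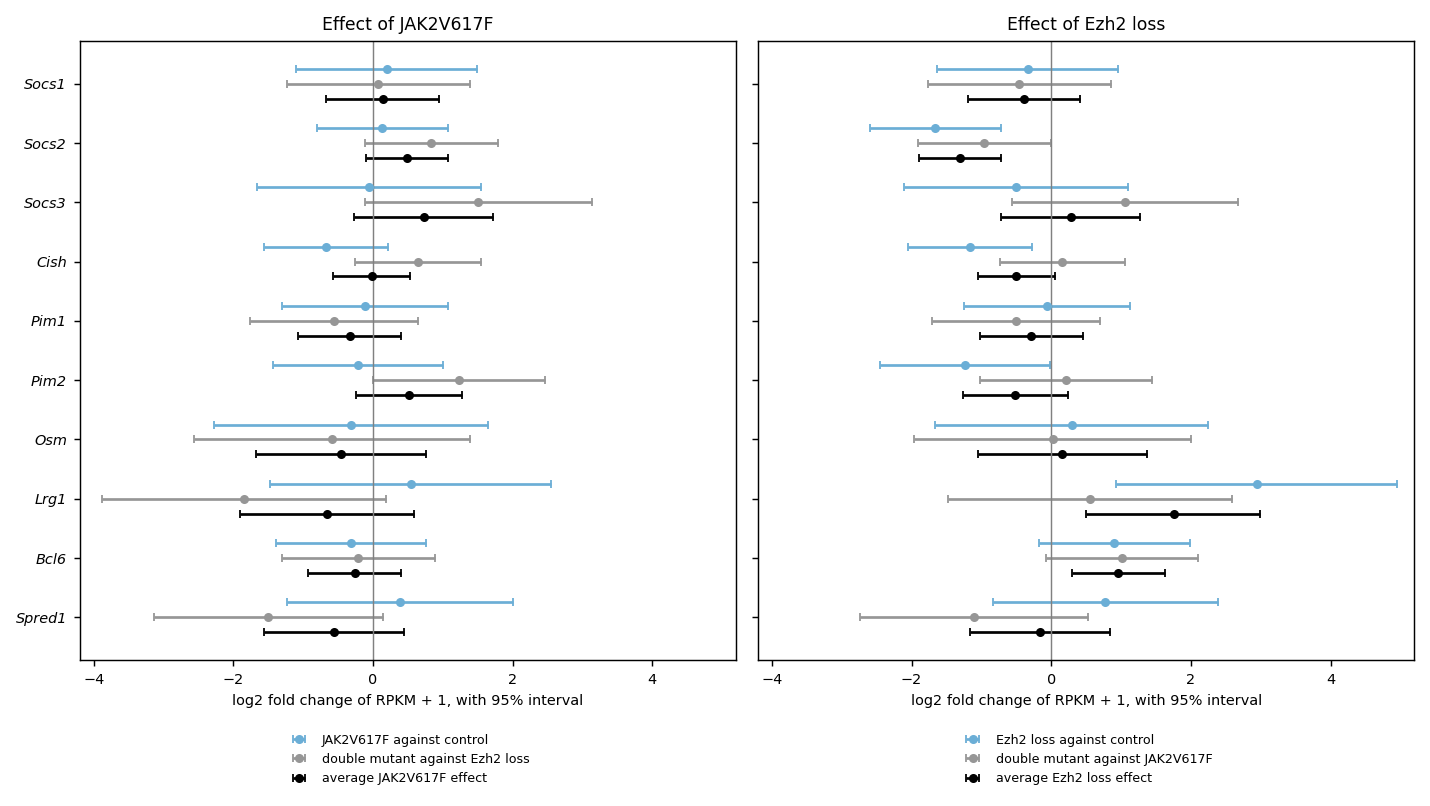
Log2 differences of RPKM + 1 (horizontal axis, limma fit with style term) with 95% intervals for the 10 genes, for JAK2V617F on the left and Ezh2 loss on the right; blue is against control, grey is the double mutant against the single mutant, black is the average. On the left every black interval includes 0, and on the right those of Socs2 (-1.89 to -0.73), Lrg1 (0.50 to 2.99) and Bcl6 (0.29 to 1.63) do not, although none passed after adjustment over all genes.

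Pim1 and Pim2 encode constitutively active serine/threonine kinases that promote survival and growth downstream of STAT5, and their output is set largely by transcript level. Pim2 (X chromosome, 7878262 to 7883432, + strand) was at 84.6, 72.5, 37.5, 36.7 and 26.6 RPKM in control. Lowest, median and highest values of Pim2 were 12.7, 25.8 and 43.7 RPKM in JAK2V617F, 0.0561, 17.0 and 47.1 RPKM in Ezh2 loss and 31.4, 48.1 and 111 RPKM in the double mutant. The lowest of these is a single read in Ezh2 loss replicate 1. Both single mutants lay at or below the middle of the control range and the double mutant within and above it, which is also the order of the share of number-first titles.

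For Pim2 the double mutant differed from Ezh2 loss by 1.23 (SE 0.60, limma adjusted p = 0.636, 95% interval 0.00 to 2.46). JAK2V617F differed from control by -0.21 (95% interval -1.43 to 1.0), and the interaction was 1.45 (SE 0.94, 95% interval -0.48 to 3.37). Ezh2 loss differed from control by -1.24 (SE 0.59, 95% interval -2.45 to -0.02, limma adjusted p = 0.82). Within number-first libraries Pim2 averaged 57.8 ± 24.4 in control (n = 4), 42.5 ± 1.71 in JAK2V617F (n = 2), 28.7 ± 16 in Ezh2 loss (n = 2) and 59.4 ± 27.4 RPKM in the double mutant (n = 7), the same order as over all libraries.

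Pim1 (chromosome 17, 29490753 to 29496112, + strand) shares 14.5% of its exon bases with the opposite-strand gene Gm26885. In control it was at 7.73, 16.9, 20.5, 13.4 and 2.67 RPKM. Medians were 5.73 RPKM in JAK2V617F, 6.63 in Ezh2 loss and 9.18 in the double mutant. Number-first libraries averaged 11.5 ± 5.66 RPKM (n = 15) and number-last libraries 4.97 ± 3.35 (n = 11), a style difference of 2.45-fold that did not pass (95% interval 1.26 to 4.77, limma adjusted p = 0.077). The average JAK2V617F effect on Pim1 was 0.794-fold (95% interval 0.476 to 1.32) and the average Ezh2 loss effect 0.820-fold (95% interval 0.492 to 1.37).

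Osm encodes oncostatin M, a cytokine of the interleukin 6 family made mostly by myeloid cells and induced by STAT5 (chromosome 11, 4236420 to 4241026, + strand). It was at 1.06, 14.6, 5.2, 3.43 and 0 RPKM in control. Over all libraries it had 0 reads in 9 of 26 and reached 14.97 RPKM in an Ezh2 loss library and 14.9 RPKM in a double-mutant library. High and absent values stood side by side within each genotype. The average JAK2V617F effect on Osm was -0.46 (95% interval -1.67 to 0.76) and the average Ezh2 loss effect 0.16 (95% interval -1.05 to 1.37). The first interval ends under a 2-fold rise but holds a 2-fold fall, and the second holds both.

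Lrg1 encodes a secreted leucine-rich glycoprotein stored in neutrophil granules and known as a STAT3-responsive gene (chromosome 17, 56119678 to 56122001, - strand). It had 0 reads in all 5 controls, which allows up to 3 reads, or 0.109 to 0.182 RPKM per library at the depths of the controls, counting error only. It was above 0 in 1 of 7 JAK2V617F libraries (5.41 RPKM), in 5 of 7 Ezh2 loss libraries (3.21, 10.7, 11.3, 25.9 and 44.2 RPKM) and in 2 of 7 double-mutant libraries (7.82 and 29.5 RPKM). Within a genotype Lrg1 was thus either absent or present at several RPKM, and its presence was most frequent after Ezh2 loss.

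For Ezh2 loss against control the Lrg1 difference was 2.94 (SE 0.98, 95% interval 0.93 to 4.95, limma adjusted p = 0.665), a fitted value that depends on the added 1 because the controls are at 0. Lrg1 was tested at all only because 5 Ezh2 loss libraries held it, so its Ezh2 loss differences are descriptions. The average Ezh2 loss effect was 1.75 (SE 0.61, limma adjusted p = 0.37). JAK2V617F differed from control by 0.54 (95% interval -1.47 to 2.55) and the double mutant from Ezh2 loss by -1.85 (95% interval -3.88 to 0.19).

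Lrg1 moved with neutrophil transcripts. The neutrophil score, the mean log2(RPKM + 1) of 12 marker genes, correlated with Lrg1 at Pearson r = 0.925 and Spearman rho = 0.775 in the 15 number-first libraries (permutation test, adjusted p = 0.0032 and 0.0096 over 40 relations), and at r = 0.859 without the 2 libraries farthest from the median score. In the 11 number-last libraries r was 0.969 and rho 0.853 (permutation test, adjusted p = 0.0054 and 0.0178), and r = 0.974 without 2 libraries. These were the only 2 of 40 relations between the 10 genes and the neutrophil and immediate early scores that passed. All 40 were taken across genotypes, so r mixes differences between and within genotypes. Every number-last library with Lrg1 above 0 was an Ezh2 loss library. Number-last scores were 2.22 to 6.58 in Ezh2 loss and 0.753 to 1.34 in control and JAK2V617F. As Lrg1 met the filter only through Ezh2 loss, its score relations are descriptions only. The summed neutrophil level was 43.5 to 388 RPKM in control, 72.9 to 17669 in JAK2V617F, 404 to 38193 in Ezh2 loss and 54.0 to 52199 in the double mutant. Of the 12 neutrophil marker genes, Elane, Mpo and Mmp8 were most often absent, at 0 in 18 of 26 libraries each. S100a8 was above 0 in every library, S100a9 was at 0 in 1, and Camp and Ngp in 5 each. With the score as a covariate the Ezh2 loss difference of Lrg1 against control was -0.75 (SE 0.64) and the average effect -0.35 (SE 0.38), so its direction turned. In bulk libraries more cells of a type and more RNA per cell cannot be told apart.

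Correlations of Cish and Socs2 with that score were negative in both styles, and none passed. For Cish r was -0.70 in number-first libraries (rho -0.47; permutation test, adjusted p = 0.066 and 0.472) and -0.24 without 2 libraries, so it rests on those. In number-last libraries it was -0.33 (rho -0.55; permutation test, adjusted p = 0.663 and 0.472) and -0.30 without 2. For Socs2 r was -0.69 in number-last libraries (rho -0.78; permutation test, adjusted p = 0.204 and 0.0664) and -0.66 without 2, and in number-first libraries it was -0.21 (rho -0.21; permutation test, adjusted p = 0.808 and 0.668). Under the score covariate the Ezh2 loss difference of Cish against control was -0.55 (SE 0.54), against -1.16 without it, while that of Socs2 was -1.81 (SE 0.60). Scores of control and Ezh2 loss libraries did not overlap, so these values, and that of Lrg1, cannot separate score from genotype.

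**Figure D3:**
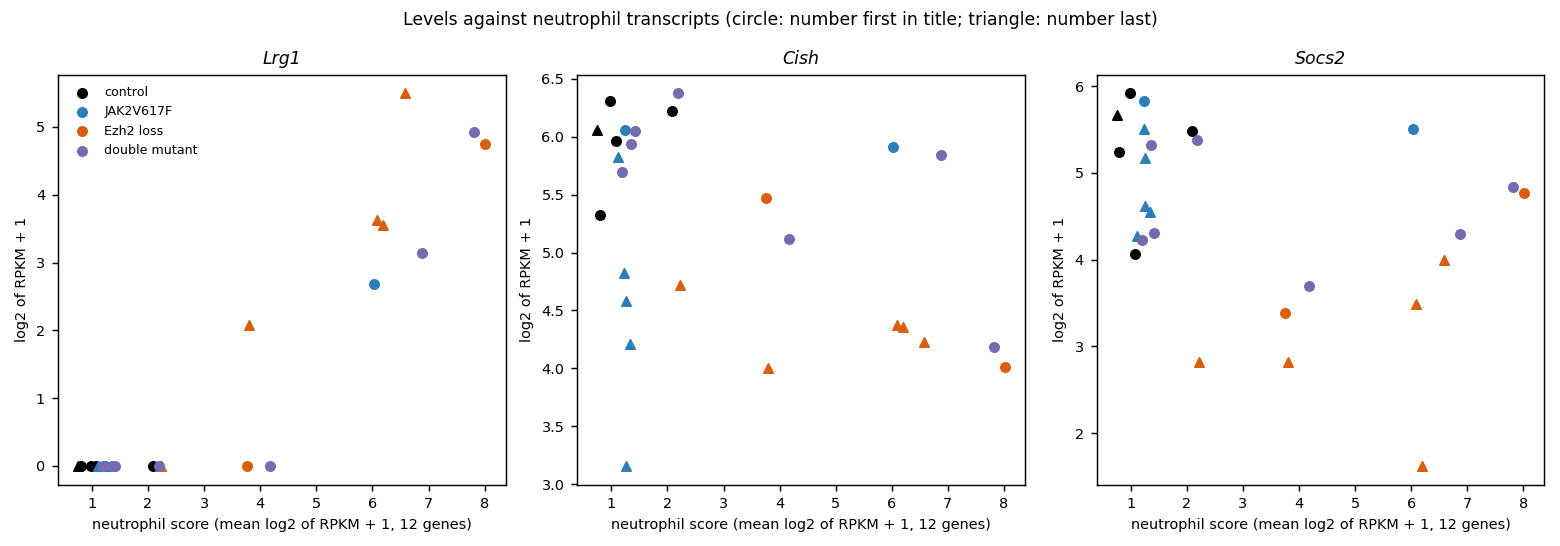
Log2(RPKM + 1) of Lrg1, Cish and Socs2 (vertical axes) against the neutrophil score of each library (horizontal axis, mean log2(RPKM + 1) of 12 marker genes), coloured by genotype, with circles for number-first and triangles for number-last titles. Lrg1 is at 0 in the low-score libraries and climbs with the score (r = 0.925 and 0.969 by style). Socs2 is low in Ezh2 loss libraries, whose scores (2.22 to 8.01) all lie above those of control (0.753 to 2.08).

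Bcl6 encodes a zinc finger repressor of germinal centre B cells whose transcript STAT5 represses in several cell types (chromosome 16, 23965052 to 23988852, - strand). Control libraries had Bcl6 at 1.95, 4.24, 3.67, 3.07 and 6.62 RPKM. In Ezh2 loss the lowest, median and highest were 8.82, 12.1 and 29.8 RPKM, and 7 of 7 libraries lay above the highest control. They were 0.0507, 9.34 and 19.1 RPKM in JAK2V617F, where the 2 number-first libraries were below and the 5 number-last libraries above all controls, and 1.45, 5.21 and 8.81 RPKM in the double mutant. Control and Ezh2 loss did not overlap, but 5 of 7 Ezh2 loss libraries and 1 of 5 controls were number-last. The share of all genes without overlap was not counted, and 0% of all tested genes passed in this comparison.

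Title style was called for Bcl6 at -1.68 (SE 0.43, limma adjusted p = 0.00814), or 0.312-fold in number-first libraries. With style in the fit the Ezh2 loss difference against control was 0.90 (SE 0.53, 95% interval -0.17 to 1.98, limma adjusted p = 0.885), against 1.77 without the style term. The average Ezh2 loss effect was 0.96 (SE 0.33, limma adjusted p = 0.364), or 1.94-fold with a 95% interval of 1.22 to 3.09. In number-first libraries alone it was 1.75 (SE 0.44, limma adjusted p = 0.368), and the average JAK2V617F effect there was -1.21 (SE 0.44) against -0.26 (SE 0.33) over all libraries. Number-first levels of Bcl6 were 3.23 ± 0.981 RPKM in control (n = 4), 0.536 ± 0.687 in JAK2V617F (n = 2), 10.4 ± 2.28 in Ezh2 loss (n = 2) and 5.53 ± 2.60 in the double mutant (n = 7).

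Spred1 encodes a membrane-associated inhibitor that keeps RAS inactive by recruiting neurofibromin (chromosome 2, 117121374 to 117182279, + strand). It was at 2.45, 9.07, 12.1, 3.38 and 0 RPKM in control, and had 0 reads in 4 of 26 libraries. Medians were 6.45 RPKM in JAK2V617F, 8.06 in Ezh2 loss and 1.18 in the double mutant, with overlap between all genotypes. The double mutant differed from Ezh2 loss by -1.50 (95% interval -3.13 to 0.14) and the average JAK2V617F effect on Spred1 was 0.679-fold (95% interval 0.339 to 1.36).

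Ordered by median RPKM, a per-length scale on which genes can be compared, control libraries held Cish (65.6), Socs2 (43.7) and Pim2 (37.5) highest, then Socs1 (19.3) and Pim1 (13.4), then Socs3 (8.56), Bcl6 (3.67), Osm (3.43) and Spred1 (3.38), and Lrg1 at 0. Neighbours in this order overlapped in their control ranges. In Ezh2 loss the median of Bcl6 (12.1) stood above that of Socs2 (9.44), the reverse of the control order. On average this held in number-last Ezh2 loss libraries (19.4 against 7.88 RPKM, n = 5). In number-first ones Socs2 averaged 17.8 and Bcl6 10.4 RPKM (n = 2), as in the control order. Single libraries departed from both averages. Number-first replicate 3 was reversed (Socs2 9.44, Bcl6 12.1 RPKM), and number-last replicate 6 was not (14.9 against 8.91 RPKM). Number-last JAK2V617F libraries kept the control order on average (28.7 against 12.3 RPKM, n = 5), though replicate 5 did not (18.3 against 19.1 RPKM). The 1 number-last control also kept it (49.99 against 6.62 RPKM). The part of title style in the reversal was not tested.

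The 10 genes did not move as a block between libraries. Of 90 pairs of genes within title styles, 0 passed after adjustment in a permutation test on Pearson r, and 6 did so at an unadjusted p under 0.05. The smallest p was that of Pim1 with Osm in number-first libraries (r = 0.72, permutation test, adjusted p = 0.173). Socs2 and Bcl6 ran in opposite directions in both styles, at r = -0.64 in number-first (n = 15, permutation test, adjusted p = 0.304) and r = -0.64 in number-last libraries (n = 11, adjusted p = 0.643, permutation test), the latter at -0.25 without 2 libraries. After the mean of each genotype and style was subtracted, r of Socs2 with Bcl6 was -0.30 in number-first (permutation test, unadjusted p = 0.283) and -0.44 in number-last libraries (permutation test, unadjusted p = 0.179), the latter 0.14 without 2 libraries. Cish and Lrg1 had r = -0.72 in number-first libraries (permutation test, adjusted p = 0.293) and 0.01 without 2 libraries, so this relation rests on those.

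**Figure D4:**
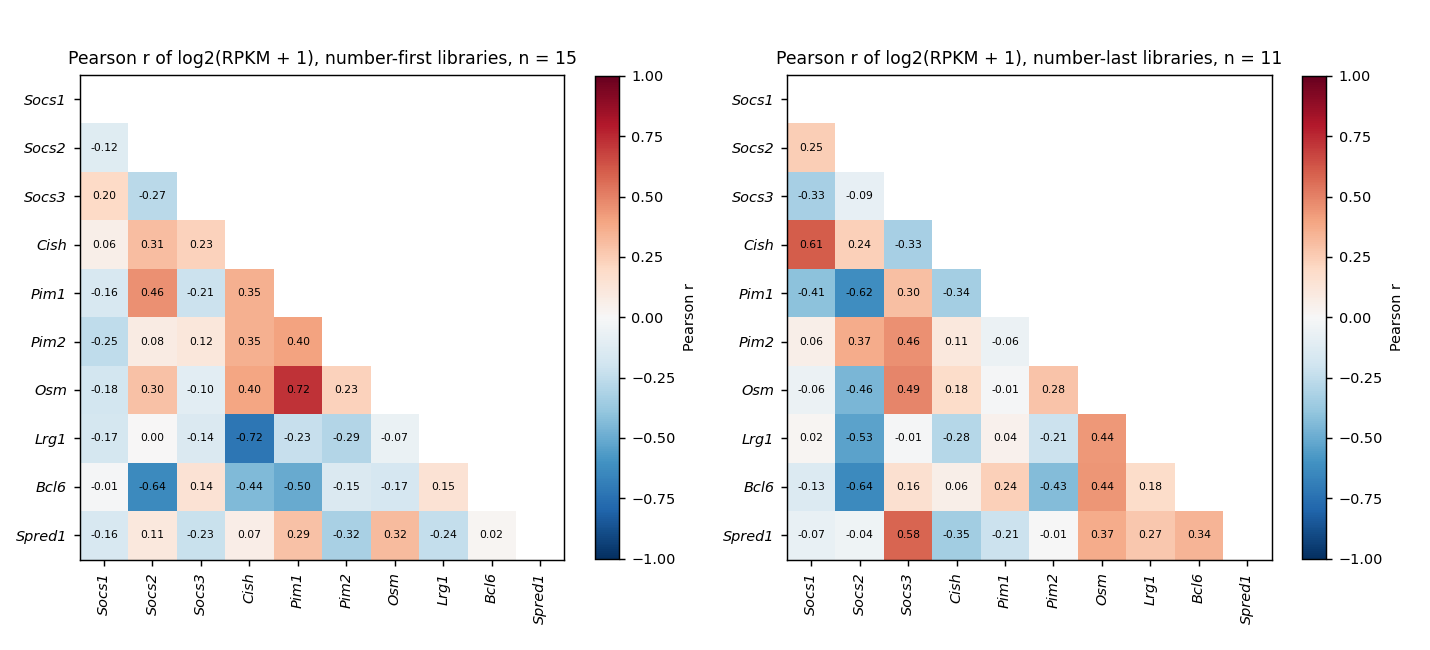
Pearson r between the log2(RPKM + 1) values of each pair of the 10 genes, in 15 number-first libraries (left) and 11 number-last libraries (right), red for positive and blue for negative. The Socs2 and Bcl6 square is at -0.64 in both panels, and the Pim1 and Osm square is at 0.72 in the left panel and at -0.01 in the right.

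No other gene of the pathway lists was called for genotype. In each of the 8 genotype comparisons 0 members passed in limma among 16 tested receptor genes of 22, 11 JAK and STAT genes of 11, 17 other brakes of 17, 18 other STAT targets of 20 and 11 RAS-MAPK feedback genes of 13. The brakes were listed as 18 symbols, of which Lnk is another name of Sh2b3. The median log2 average JAK2V617F effect was 0.02 for receptors, 0.09 for JAK and STAT genes, 0.14 for other brakes, -0.24 for other targets and -0.01 for RAS-MAPK feedback genes, against -0.01 over all genes. The median average Ezh2 loss effect was 0.22, 0.16, 0.01, 0.02 and -0.13 in the same order, against -0.01.

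Among the genes with the smallest p in these lists, none passing, the average Ezh2 loss effect was -0.99 for the stress-response target Gadd45g (SE 0.23, limma adjusted p = 0.126), -1.34 for the cyclin D1 gene Ccnd1 (SE 0.34, adjusted p = 0.15) and 1.0 for Csf3r, the granulocyte colony-stimulating factor receptor (SE 0.30, adjusted p = 0.276). For title style 1 receptor gene rose and 1 fell in number-first libraries, as did 2 and 0 other brakes, 4 and 1 other targets, and 1 and 1 RAS-MAPK feedback genes. Among the receptors, Ifnar2 (a subunit of the type I interferon receptor) was higher by 1.04 and Il2rg (the common gamma chain) fell by 0.77 in number-first libraries. Among the brakes, Pias2 (1.24) and Pias3 (2.08), which encode SUMO ligases that inhibit STATs, were higher there. Of the Sprouty genes, inhibitors of RAS-MAPK signalling, Spry1 was higher (2.81) and Spry2 lower (-2.60). Among the other targets Junb (2.02), Pim3 (2.04), Bcl2l1 (2.20) and Ccnd3 (1.48) were higher in number-first libraries.

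Title style was called for 2 of the 10 genes, Socs1 and Bcl6, where 11% of all genes passed, and for 4 of 10 at an unadjusted p under 0.05, where 23.4% of all genes did. The labels were checked on the altered genes. Ezh2 had 23.7 RPKM in control, 17.6 in Ezh2 loss, 27.1 in JAK2V617F and 17.4 in the double mutant on average, with overlapping libraries, and the average Ezh2 loss effect on it was 0.674-fold (95% interval 0.452 to 1.01, limma adjusted p = 0.589). A single value per gene covers the whole gene, so a transcript lacking only a part would still count. The allele is not named, and neither this nor incomplete loss was tested, so the check on Ezh2 was undecided. Jak2 averaged 16.2, 17.8, 12.8 and 11.3 RPKM in that order, and the mutated base is not visible in such values.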

How the data were processed

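The authors deposited 1 table of RPKM for 26 Smart-Seq2 libraries and 23416 genes, with 0 unmapped columns. The tools were Subread 1.5.0, STAR 2.4.2a and SAMtools 0.1.19 on mm10/GRCm38, per the submitters' processing notes. The sources used here do not name their settings, the annotation or the use of strand in counting. Groups come from the genotype label, and replicate numbers follow the order of deposition.

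Levels were tested as log2(RPKM + 1), which understates changes of low genes, with limma 3.58.1 in R 4.3.3 (eBayes with trend and robust). The fit held 1 mean per genotype and a title style term over all 26 libraries. Genes at 1 RPKM or more in at least 5 libraries were tested, two-sided, with Benjamini-Hochberg adjustment over 12116 genes at 0.05. Contrasts and correlations were tested on simulated data first. Correlations used 100000 permutations within title style.

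Depth was recovered from whole-read steps of low RPKM values: 314 of 325 library pairs were coherent, and the values of the 10 genes departed from whole reads by at most 4.77e-05 reads. Floors and read limits cover counting error only, since reads carry no molecular identifiers. RefSeq windows and GENCODE M21 gave sequences and positions.

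The genes, lists and tests were chosen with earlier results of these data known. Beside the 10 genes, Ezh2 and Jak2, the text names list members that passed, at most 4 a comparison, otherwise up to 2 by smallest p, and the 5 genes most like Socs2 and Cish. Not every gene meeting the rule is reported. Alternatives are described in the closing section.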

Additional observations from a re-analysis of the deposited data

Results flagged for a closer look

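Of 40 groups of libraries examined for a single value far from the others, 2 were flagged, about the share that chance alone gives (1 in 20). Pim2 in Ezh2 loss replicate 1 was at 0.0561 RPKM, a single read, against 10.1 RPKM in the next library, a gap of 0.616 of the group's whole range on the log2(RPKM + 1) scale. Lrg1 in JAK2V617F replicate 3 was at 5.41 RPKM and at 0 in the other 6 libraries. The gap was the whole range (1), as it must be where a single value lies above 0.

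The JAK2V617F difference of Pim2 had opposite signs with and without Ezh2. Every JAK2V617F library lay below the control mean, every double-mutant library lay above the Ezh2 loss mean, and the interaction without a style term was 2.84. With the style term it was 1.45 (SE 0.94) and did not pass in limma. Title style and genotype overlap here, since 7 of 7 double-mutant libraries are number-first.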

How the results depend on the processing

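Each difference of the 10 genes was recomputed without each of the 26 libraries and under 11 to 15 other settings, depending on the comparison (15 for pairs of genotypes, 14 for averages and the interaction, 11 for title style): no style term, number-first libraries alone, the compared groups alone, pseudocounts of 0.1 and 5, a filter at 5 RPKM or none, median-ratio scaling, TPM, quantile normalization, array weights, detected genes, neutrophil score or immediate early score as covariates, and a replicate block (these last 2 chosen after seeing the data). In every setting run 0 of 10 genes passed for JAK2V617F against control, the double mutant against Ezh2 loss, the average JAK2V617F effect, Ezh2 loss against control, the double mutant against JAK2V617F and the double mutant against control. For the average Ezh2 loss effect 0 to 1 passed when 1 library was left out (Socs2) and 0 otherwise. For the interaction 1 passed with no style term (Cish). For title style 1 to 3 passed when 1 library was left out, 1 (Socs1) without JAK2V617F replicate 3, and 1 with detected genes as a covariate. Without the style term, over all genes 85 passed for the double mutant against Ezh2 loss, 274 for the double mutant against JAK2V617F and 215 for the interaction, against 0, 4 and 0 with it; the median of all genes moved to 0.14, 0.14 and 0.25. Signs of single differences changed in 106 of 2340 leave-one-out fits and 108 of 1280 others, none of them a called value. Title numbers are unique among number-first libraries, while number-last JAK2V617F and Ezh2 loss share 4. Same-numbered libraries of these groups did not deviate together (r -0.09 to 0.03 across genes), and with number-last numbers as a replicate block 0 of 10 genes passed in each genotype comparison. Genes with few reads, Lrg1 (0 reads in 18 libraries) and Osm (9), limit what depth can show.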
